A study of Arabidopsis thaliana with 21 samples.

Results

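Wild-type Arabidopsis thaliana plants that had been without phosphate were given 1 mM phosphate for 8 h and compared with plants left without a supplement. The comparison took the 3 arrays of plants given 1 mM phosphate, by sample title, and the 3 arrays of unsupplemented control plants at 8 h. These are 6 of the 21 arrays of the series. All these plants were of the Col-0 ecotype with no transgene named, and per the labels all of them, controls included, had grown for 7 days on medium holding 1 mM phosphate and then for 2 days on medium lacking it before the move to liquid medium. The same array type was also hybridised with wild-type plants given 30 µM phosphate or 30 µM arsenate for 8 h, 3 arrays each, and these 6 arrays are used below only to show where the response to 1 mM phosphate differs. The title, source name and characteristics of the 1 mM samples give that dose, but their description field reads 30 µM, and the levels below are given under the title. The labels name no tissue, so roots and shoots cannot be told apart, and a change in the share of a tissue cannot be told apart from a change in RNA per cell.

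Plants short of phosphate switch on a set of genes through the transcription factor PHR1 and its relatives, which bind a short motif in the promoters of their targets. Proteins with an SPX domain bind inositol pyrophosphates when phosphate is plentiful and then hold PHR1 back, and some of the SPX genes are themselves targets of PHR1, so resupply closes a feedback loop. The targets are known to include high-affinity phosphate transporters, secreted acid phosphatases and ribonucleases that free phosphate from organic matter, and enzymes that replace phospholipids with galactolipids and sulfolipids. Arsenate resembles phosphate and enters through the same transporters. The tables used here do not pair the ATH1 probe sets with genes, so members of these pathways could not be picked out, and the results are given by probe set, that is, by the group of array oligonucleotides read as 1 value.

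At 8 h, the falls in plants given 1 mM phosphate, compared with the control, were much deeper than the rises. Whether the 1 mM arrays were handled apart from the control arrays was not tested. Levels are log2 RMA values throughout, on which 1 unit is a doubling of the summarised signal. The deepest change downward was -7.82 and the largest upward 3.05. Of the 22746 probe sets tested, 1258 were lower and 1053 higher with 1 mM phosphate than in the control (limma, Benjamini-Hochberg adjusted p under 0.05), together 10.2% of those tested (5.53% lower and 4.63% higher). The imbalance lay in the size of the changes: 433 probe sets fell by at least 1 log2 unit (1.9%) and 161 rose by as much (0.708%), 131 fell by at least 2 units against 8 that rose by as much, 49 fell by at least 3 units against 1 that rose by as much, and 20 fell by at least 4 units. The median difference over all probe sets was 0.03. Centring each array on its median left the larger falls ahead but made higher calls the majority of all calls, at 52.6%, compared with 45.6% on the deposited values.

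**Figure D1:**
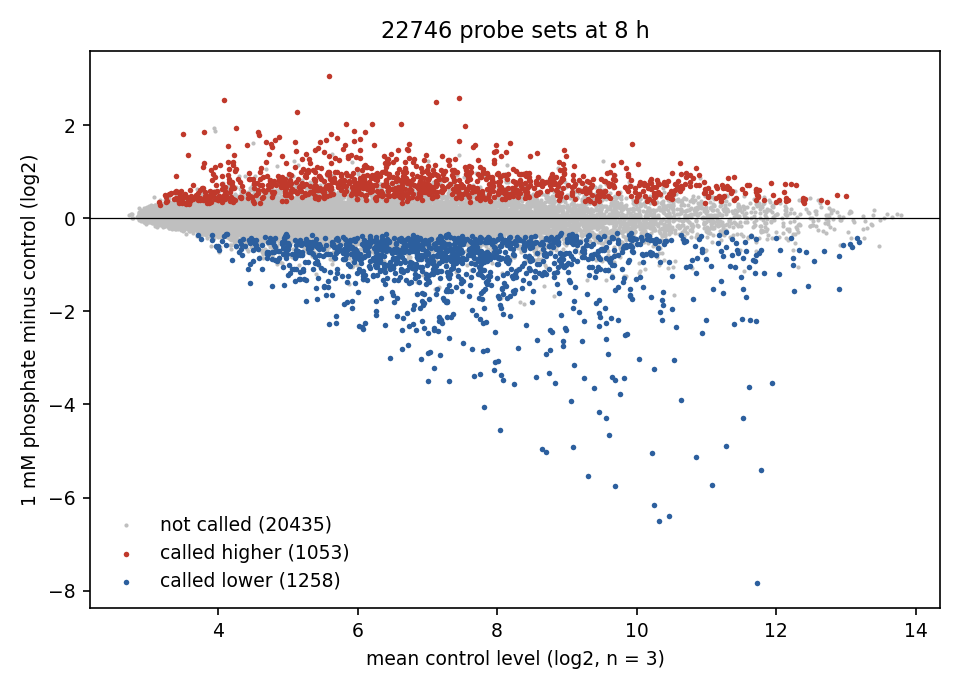
Difference between 1 mM phosphate and control at 8 h (log2, vertical axis) against the mean control level (log2, 3 arrays, horizontal axis), 1 point per probe set, red where called higher, blue where called lower and grey where not called. The falls reach -7.82, whereas the rises end at 3.05.

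The 2 largest falls and the 2 largest rises among called probe sets whose arrays did not overlap are given by their identifiers. They were chosen with the 1 mM arrays, which the tests against 30 µM phosphate and arsenate use again. Those differences can be enlarged by that choice, and no value without it is given. The probe set with the largest fall, 262369_at, read 3.77, 3.84 and 4.09 in plants given 1 mM phosphate, against 11.85, 11.53 and 11.79 in control plants. It was bright in every control and close to the lower quartile of the array, which lay between 3.72 and 3.75, in every plant sample given 1 mM phosphate. The difference was -7.82 ± 0.31 (SE, n = 3 per group, limma adjusted p = 1.1e-07). Its level in plants given 30 µM phosphate was 10.94, 9.50 and 9.65, and in plants given arsenate 11.36, 11.86 and 11.90. Tested directly, it was lower at 1 mM than at 30 µM phosphate by 6.13 log2 units (difference -6.13 ± 0.31, limma adjusted p = 2.8e-06) and lower than with arsenate (difference -7.81 ± 0.31, limma adjusted p = 6e-09).

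The second, 263391_at, read 3.73, 3.74 and 3.96 with 1 mM phosphate, against 10.52, 10.09 and 10.35 in the control, a difference of -6.51 ± 0.27 (SE, limma adjusted p = 1.1e-07). It too ended at the low end of the scale on all 3 arrays of the supplemented plants. With 30 µM phosphate it read 9.03, 7.77 and 8.12, and with arsenate 9.88, 10.33 and 10.48. The direct difference of 1 mM from 30 µM phosphate was -4.50 ± 0.27 (limma adjusted p = 7.8e-06). For both probe sets, replicate 1 of the 30 µM group was the highest of its group, and all 3 arrays of that group lay between the arrays of the 1 mM group and those of the control. The table holds no detection calls, so whether either was above background with 1 mM phosphate was not determined. Their differences, those from 30 µM phosphate and arsenate included, are therefore differences between RMA values and not measured folds of the transcript.

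The probe set with the largest rise, 259842_at, read 8.52, 8.93 and 8.48 with 1 mM phosphate, against 5.55, 5.66 and 5.56 in the control (difference 3.05 ± 0.22, SE, limma adjusted p = 5.4e-06). The control arrays lay close together, far below the supplemented ones. With 30 µM phosphate it read 7.93, 7.96 and 8.14 and with arsenate 6.67, 5.82 and 5.67. Here the step between the doses was small: 1 mM differed from 30 µM phosphate by 0.63 (95% interval 0.16 to 1.11), which did not pass (limma adjusted p = 0.088), although it passed in 4 of the other settings (adjusted p 0.024 to 0.042). The difference of 1 mM phosphate from arsenate was 2.59 ± 0.22 (limma adjusted p = 2.4e-06).

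The second rise, 257365_x_at, was less even between replicates. It read 9.69, 10.33 and 10.08 with 1 mM phosphate, against 6.62, 8.04 and 7.69 in the control (difference 2.58 ± 0.52, SE, limma adjusted p = 0.0094). The groups did not overlap, but control replicate 1 lay more than a log2 unit below the other two, and without it the difference was 2.17 (limma adjusted p = 0.042). Its identifier carries the array maker's _x suffix, which marks probes that may also bind other sequences. The level was 7.96, 8.65 and 7.34 with 30 µM phosphate, and the direct difference of 1 mM from 30 µM was 2.05 ± 0.52 (limma adjusted p = 0.032). This call was lost with a trended and robust variance (0.052) and without 30 µM replicate 1 (0.087) or 3 (0.103) or 1 mM replicate 1 (0.074), 2 (0.086) or 3 (0.085). With arsenate it read 8.23, 9.72 and 7.51, and the difference of 1 mM phosphate from arsenate was 1.55 ± 0.52 (limma adjusted p = 0.036), a call likewise lost with a trended and robust variance (0.059), in 5 of the 6 fits that left out 1 array of these groups (0.053 to 0.151), and without replicate 1 of the 3 other groups together (0.053).

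**Figure D2:**
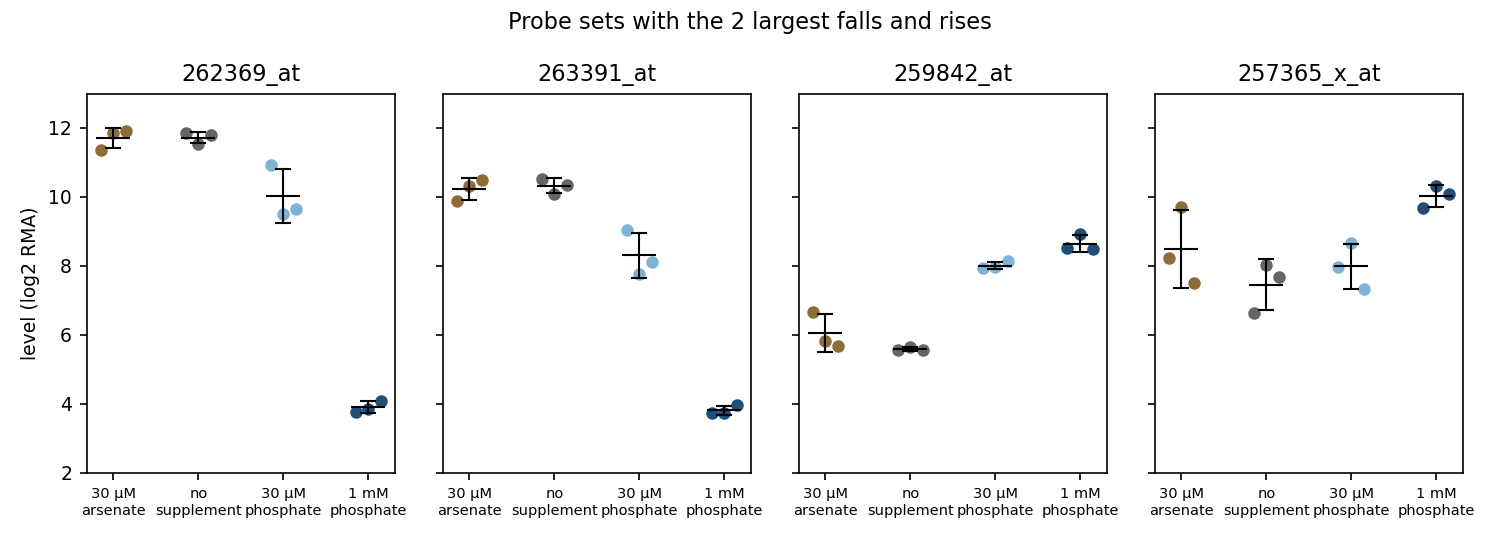
Levels (log2 RMA, vertical axis) of the 4 probe sets on each of 12 arrays, with 30 µM arsenate at the left of each panel followed by 0, 30 µM and 1 mM phosphate, points for single arrays and black bars for the mean ± SD of 3. The probe sets 262369_at and 263391_at read 4.09 or lower on each array with 1 mM phosphate, and 259842_at is raised at both phosphate doses.

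The called probe sets were then grouped by the size of their change, to see how whole groups of transcripts ran with the phosphate dose. The classes were formed from the 1 mM and control arrays, so their levels there are a description, and the comparisons of each treatment with the control share the control arrays, so their differences are only set side by side. The 20 probe sets that fell by 4 units or more had a median level of 9.95 in the control, 8.18 with 30 µM phosphate and 4.13 with 1 mM phosphate. In all 20 the 30 µM mean lay between the other two. Their median difference from the control was -5.03 with 1 mM phosphate, -1.76 with 30 µM phosphate (from -3.41 to -0.98) and -0.35 with arsenate (from -3.60 to 1.08). Because the classes were formed with the control arrays, some difference from the control at 30 µM can arise from that choice alone, and no value without it is given. On the 30 µM arrays the median difference of the class from the control mean was -1.39, -2.18 and -2.04 on replicates 1, 2 and 3.

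The 111 probe sets that fell by 2 to 4 units had median levels of 8.06 in the control, 6.77 with 30 µM phosphate and 5.31 with 1 mM phosphate. Their median differences from the control were -2.41 with 1 mM phosphate, -1.29 with 30 µM phosphate and -0.08 with arsenate. For the 302 that fell by 1 to 2 units these medians were -1.27, -0.63 and 0.10, and for the 825 that fell by less than 1 unit -0.63, -0.19 and 0.05. Arsenate medians lay between -0.08 and 0.10 in the 3 classes that fell by less than 4 units, with wide ranges (from -3.61 to 4.77 in the class of 2 to 4 units).

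The 153 that rose by 1 to 2 units had median levels of 6.39 in the control, 6.59 with 30 µM phosphate and 7.65 with 1 mM phosphate. Their median differences from the control were 1.25 with 1 mM phosphate, 0.33 with 30 µM phosphate and -0.42 with arsenate. The 892 that rose by less than 1 unit had medians of 0.64, 0.19 and -0.21. The 8 that rose by 2 units or more had medians of 2.38, 0.88 and 0.00, and their differences at 30 µM spread from -1.08 to 2.42.

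**Figure D3:**
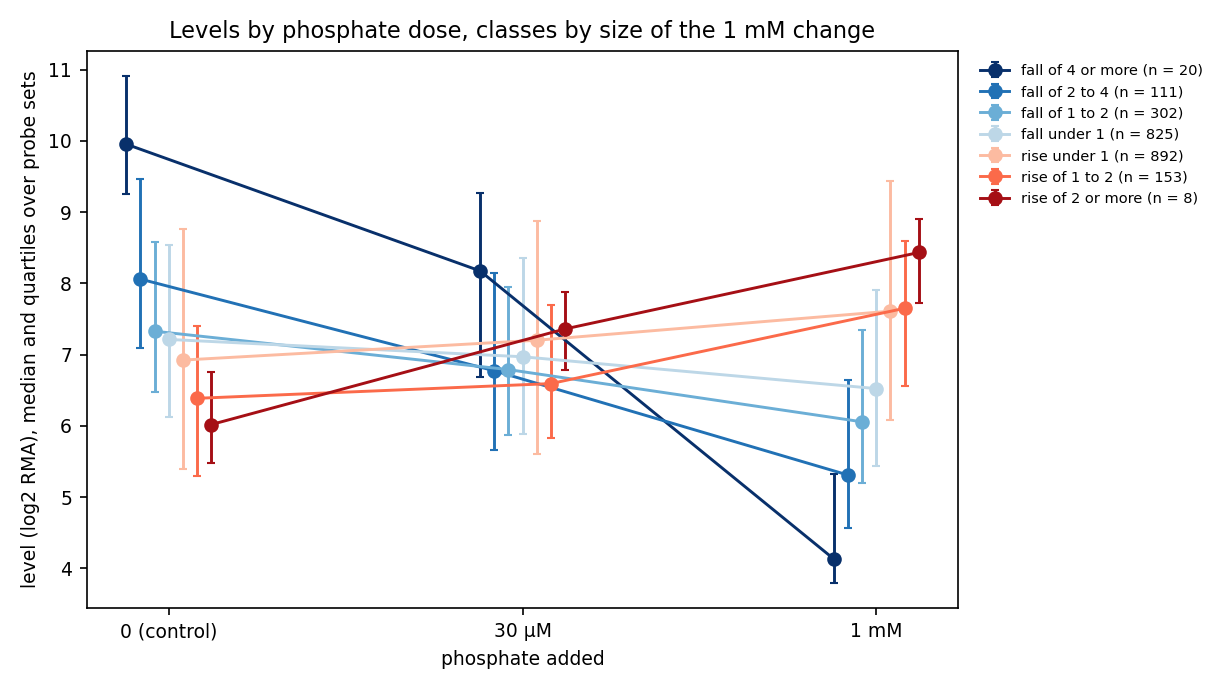
Level (log2 RMA, vertical axis) of the called probe sets at 0 (control), 30 µM and 1 mM added phosphate, as the median over the probe sets of each size class with bars for the quartiles. The 20 probe sets with falls of 4 or more go down mostly between 30 µM and 1 mM, with medians of 9.95, 8.18 and 4.13.

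The direct test between the doses gave the size of this step for each probe set. With 1 mM phosphate 1249 probe sets were lower than with 30 µM phosphate (5.49%) and 997 were higher (4.38%), together 9.87% of those tested. Of the 20 falls of 4 units or more, all 20 were lower at 1 mM than at 30 µM by this test, as were 86 of the 111 falls of 2 to 4 units, 159 of the 302 falls of 1 to 2 units and 326 of the 825 smaller falls. Of the 153 rises of 1 to 2 units, 103 were higher at 1 mM than at 30 µM, and of the 8 rises of 2 units or more, 3 were. Of the 892 smaller rises, 360 were higher at 1 mM and 7 were lower. Both tests use the 1 mM arrays, so these counts describe the classes and are read against no background. The total of 2246 varied with the arrays used. It was 680, 1407 and 1100 without replicates 1, 2 and 3 of the 1 mM group, and 863, 1885 and 1193 without replicates 1, 2 and 3 of the 30 µM group. Without replicate 1 of the 30 µM phosphate, arsenate and control groups together it was 2556, of which 1846 were among the 2246. Centring the arrays changed the split between the doses to 794 lower, with 64.9% of calls higher, where the deposited values gave 44.4%. A further quantile normalization gave 54.8%.

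The difference between 1 mM phosphate and 30 µM arsenate covered more of the array. Here 4521 probe sets were higher with 1 mM phosphate (19.9%) and 3815 lower (16.8%), together 36.6% of those tested. Each treatment's own comparison with the shared control gave 2311 called probe sets for 1 mM phosphate. For 30 µM phosphate it gave 880 (3.87%), of which 534 were higher (2.35%) and 346 lower (1.52%). Same-numbered arrays of the 30 µM phosphate, arsenate and control groups deviated together, and with the replicate number as a block over these 3 groups the count was 1660 (952 higher and 708 lower), against 529 in the same 3 groups without the block. For arsenate it gave 5469 (24%), of which 2465 were higher (10.8%) and 3004 lower (13.2%).

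Within the group given 1 mM phosphate the response was even across arrays. The class of falls of 4 units or more had median differences from the control mean of -5.15, -5.10 and -5.15 on replicates 1, 2 and 3, and the class of rises of 1 to 2 units 1.33, 1.21 and 1.21. On the control arrays the same rises lay at -0.21, 0.21 and 0.00. Since the classes were formed on these arrays, this is a description. Calls of changes of at least 1 unit also depended less on any 1 array than those of smaller changes. This follows in part from the classes, which were cut on the same arrays. In each of the 6 fits that left out 1 of the 1 mM or control arrays, all 20 falls of 4 units or more remained called in the same direction, as did 105 of the 111 falls of 2 to 4 units, 251 of the 302 falls of 1 to 2 units, 117 of the 153 rises of 1 to 2 units and 6 of the 8 rises of 2 units or more. Of the changes under 1 unit, 257 of 825 falls and 260 of 892 rises did. The total of 2311 was 1366 without control replicate 1, 1413 without control replicate 3 and 1247 without 1 mM replicate 1. Without 1 mM replicate 3, the higher calls numbered 658.

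**Figure D4:**
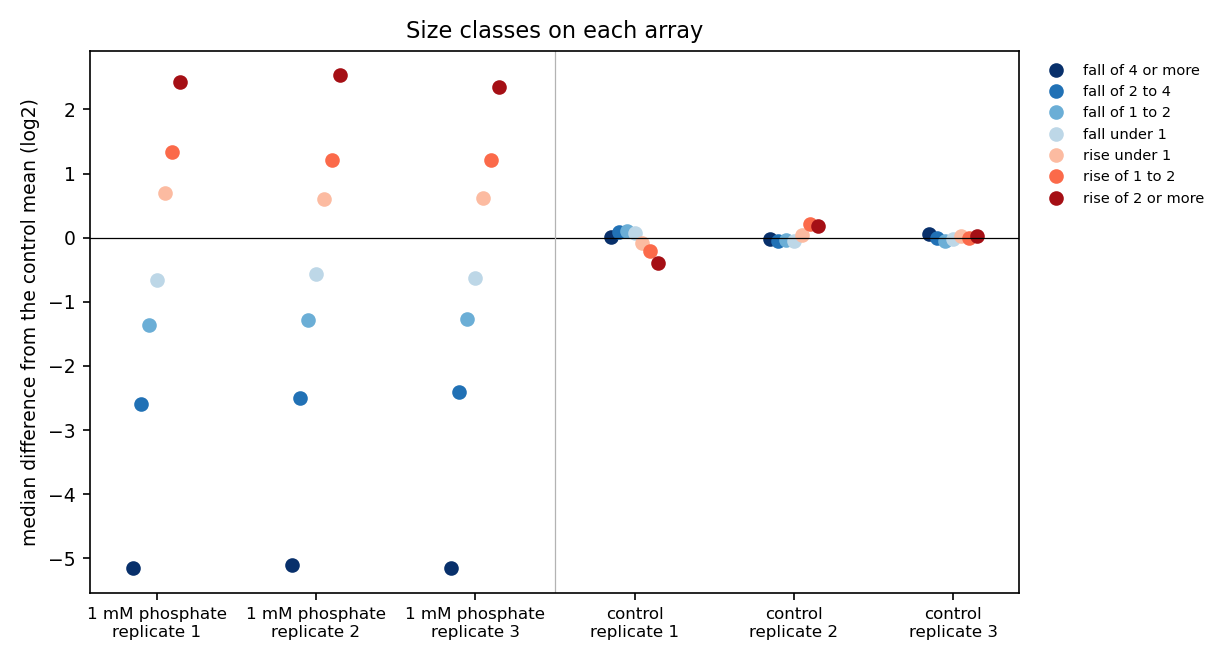
Median difference from the control mean (log2, vertical axis) of each size class on the 3 arrays of plants given 1 mM phosphate and, to their right, the 3 control arrays. The class with falls of 4 or more lies between -5.15 and -5.10 on each 1 mM array and within 0.06 of 0 on each control array.

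Calls were most frequent among probe sets with a high signal. Probe sets were parted at the quartiles of their mean over all 12 arrays, into 4 bands. In the brightest band 20.2% were called (529 higher and 621 lower), in the next 14.7% (345 higher and 492 lower), then 5.09% (150 higher and 139 lower), and in the dimmest 0.615% (29 higher and 6 lower). Changes of at least 1 unit were called in each of the brighter 3 bands and in 0 probe sets of the dimmest. The bands were cut on arrays that the test also used. The dimmest ended at 3.70, and the lowest mean of any probe set with 1 mM phosphate was 2.77. This left little room there for a fall of 1 unit, and a large rise moves a probe set out of the band. Of the 433 probe sets that fell by at least 1 unit, 12 read at or under the lower quartile of the array on all 3 arrays with 1 mM phosphate, a count that leaves out 262369_at and 263391_at, which lay just above it on at least 1 array. Conversely, 1 of the 161 that rose by at least 1 unit was at or under that quartile on all 3 control arrays. Every 1 mM array lay below every control array for 13.9% of all probe sets and above them for 15.6%.

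The array's own control probe sets, which were left out of the counts above, name a few plant genes. GAPDH, a glycolytic enzyme, was measured by 5 of them, of which 2 were lower with 1 mM phosphate in a fit that held all probe sets (5.53% were lower in the main fit). The one for the middle of the transcript read 11.15, 11.35 and 11.36 with 1 mM phosphate, against 11.75, 11.76 and 11.79 in the control (difference -0.48 ± 0.12, SE, limma adjusted p = 0.027). The other read 11.52, 11.62 and 11.70, against 12.05, 11.91 and 12.03 in the control (difference -0.38 ± 0.10, limma adjusted p = 0.031). Neither group pair overlapped, but the first call was lost in all 6 fits with 1 array fewer (adjusted p 0.051 to 0.11) and the second in 4 of them (0.071 to 0.12). Both remained under the 2 other scalings. Over all 5 GAPDH probe sets the differences ran from -0.48 to -0.09, with 4 at an unadjusted p under 0.05. The smallest, -0.09 (limma adjusted p = 0.59), was at the 3′ end, in the same series as the one for the middle. None of the 5 ubiquitin probe sets passed (differences -0.35 to -0.20, smallest limma adjusted p = 0.085, with 4 at an unadjusted p under 0.05), and none of the 6 actin probe sets did (-0.21 to 0.30, smallest limma adjusted p = 0.34, with 0 at an unadjusted p under 0.05).

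Array medians lay between 5.02 and 5.05 with 1 mM phosphate and between 5.05 and 5.13 in the control, and replicate arrays correlated with Pearson's r between 0.991 and 0.992 with 1 mM phosphate and between 0.990 and 0.995 in the control. The median SD of a probe set over 3 arrays was 0.14 in both groups. The bacterial transcripts commonly spiked into the RNA before labelling (24 probe sets) averaged 6.68, 6.82 and 5.58 with 1 mM phosphate and 5.02, 6.10 and 5.92 in the control, and those added at hybridisation (18 probe sets) 10.74, 10.57 and 10.41 with 1 mM phosphate and 9.97, 10.39 and 10.58 in the control. Every one of these probe sets had a higher mean with 1 mM phosphate than in the control. The differences were 0.26 to 1.03 in the first set and 0.02 to 0.38 in the second. None was called (0 in limma, with 1 at an unadjusted p under 0.05). The array averages of the groups overlapped, and the part of these shifts in the results was not tested. The gap between 3′ and 5′ signal is a measure of RNA integrity. For the GAPDH pair whose 3′ probe set changed least, it was 1.19 to 1.41 with 1 mM phosphate and 0.89 to 1.00 in the control. It was -0.19 to -0.16 with 1 mM phosphate and -0.32 to -0.20 in the control for 1 ubiquitin pair, and went the other way for 1 actin pair (3.84 to 3.90 with 1 mM phosphate and 4.00 to 4.47 in the control). In the 3 other pairs the groups overlapped, and the part of RNA integrity in the results was not tested.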

How the data were processed

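The deposited log2 values of 12 Affymetrix ATH1 arrays were used. They are RMA values, per the submitters' processing notes, with the version not given in the sources used here. This method corrects background, quantile-normalizes the arrays and summarises probes robustly, and it takes out any shift that most transcripts share. The 3 arrays of a condition are separate biological samples, per the labels, whose RNA was hybridised as biotin-labelled cRNA. Groups and replicate numbers come from the sample titles, except that the control titles give no time. The controls used here are those on the ATH1 arrays. The 9 NimbleGen arrays at 1.5 h hold no phosphate group and were not used.

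Of 22810 probe sets, 64 controls were left out and 22746 were tested without a filter, with limma 3.58.1 in R 4.3.3: lmFit over all 4 groups, which share 1 estimate of the spread, contrasts.fit and eBayes, two-sided, Benjamini-Hochberg over all probe sets, called at an adjusted p under 0.05. Standard errors are the moderated ones. The fit was tested on simulated data with independent noise on each array. Those data held no deviations shared by same-numbered arrays, so the test does not cover them. The number of arrays limits the precision. Control probe sets were fitted with all others in a second fit. Probe sets are named by rule: the 2 largest called changes per direction whose arrays do not overlap. The planned gene and marker lists were not run, because the tables used here do not pair probe sets with genes, and no sequence is printed for the same reason. The comparison and its rules were chosen with earlier results of these data known. Same-numbered arrays of the 1 mM and control groups did not deviate together, so the replicate number was not used as a block. Those of the other 3 groups did in every pair, a hint from the data and not from the labels, and a block over them was an added alternative.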

Additional observations from a re-analysis of the deposited data

How the results depend on the processing

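The 4 named probe sets remained called, in the same direction, in the comparison of 1 mM phosphate with the control under all 15 other settings (largest adjusted p 0.042, for 257365_x_at). They were chosen as the largest called changes of that comparison, and the settings reuse its arrays, so this is no separate support. Leaving out 1 array at a time gave 1247 to 1707 called probe sets in that comparison (506 to 718 higher and 741 to 989 lower) where all arrays gave 2311, and 680 to 1885 in the comparison with 30 µM phosphate (294 to 910 higher and 386 to 975 lower) where all arrays gave 2246. The count of falls of at least 1 log2 unit was steadier, at 381 to 434 where all arrays gave 433. Rises of at least 1 log2 unit numbered 125 to 214, below and above the 161 that all arrays gave. A fit of the 1 mM and control arrays alone called 2932 probe sets (1357 higher and 1575 lower). In the comparison with 30 µM phosphate, the lower calls numbered 794 after centring the arrays on their median and 1891 with array weights, against 1249 in the deposited values with equal weights, and the cause was not tested. The count for 1 mM phosphate against arsenate stayed between 7188 and 9014 over all settings. Leaving out replicate 1 of the control, 30 µM phosphate and arsenate groups together, chosen after seeing the data, gave 3149 called probe sets against the control, 2556 against 30 µM phosphate and 9014 against arsenate.

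With the replicate number as a block, 2796 probe sets were called against the control, 3030 against 30 µM phosphate and 8814 against arsenate. Deviations of same-numbered arrays from their group means correlated at -0.18 to 0.04 between the 1 mM and control groups. Over all pairs that include the 1 mM group the range was -0.20 to 0.07. Among the other 3 groups they correlated at 0.13 to 0.49, every pair over 0.1. With 3 arrays per group, these values cannot show that no samples were paired. The labels name no batch, and whether the 1 mM arrays were handled apart from the control arrays was not tested. For 30 µM phosphate against the control, a block over those 3 groups, added after seeing the data, gave 1660 called probe sets (952 higher and 708 lower), the same 3 groups without it 529 (323 higher and 206 lower), and all 4 groups 880 without and 1155 with the block. For arsenate against the control these counts were 6682, 5119, 5469 and 5997. The alternatives for gene lists were not run, because probe sets could not be paired with genes. Of the dimmest band of probe sets, 0.615% were called, and the table holds no detection calls.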
